A study of Mus musculus with 15 samples.

Results

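The transcripts of 34 nuclear receptors were followed across 15 mouse liver RNA-seq libraries. The genes were taken by symbol from a list of receptors written for this work with earlier results of these data known. The rule itself holds no measured value, and all 34 were among the 16330 genes of the table. Of these, 32 passed the filter on low values (a normalized count of at least 10 in at least 3 libraries) and were tested; Vdr and Hnf4g did not. The livers carried either luciferase, a light-producing control enzyme, or LbNOX, the water-forming NADH oxidase of Lactobacillus brevis, which lowers the ratio of NADH to NAD+. Mice received water or ethanol by gavage, and liver was taken 6 h later. There were 5 luciferase libraries after water (M1 to M5), 4 LbNOX libraries after water (M6 to M9), 3 luciferase libraries after ethanol (M10 to M12) and 3 LbNOX libraries after ethanol (M13 to M15). The design text speaks of wild-type or ChREBP animals, whereas titles and table header name the constructs, and these were followed. Strain, age, ethanol dose and the way the constructs were delivered are not given in the sources used here, so which liver cells held LbNOX is not known. Nothing states that the libraries came from separate animals, and p-values measure the spread between these libraries.

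Nuclear receptors are transcription factors, many of which are switched by small lipid-soluble ligands such as oxysterols, bile acids, fatty acids, retinoic acid and thyroid hormone. Many of the lipid sensors bind DNA as pairs with a retinoid X receptor, and they recruit coactivator or corepressor complexes that open or close chromatin. In the liver they set bile acid synthesis, fat oxidation and storage, drug clearance and hepatocyte identity. A receptor's transcript level says nothing of its ligand or its activity, which were not measured.

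Recovered depth was 10.6 to 23.7 M reads per library. In luciferase livers it was 14.5 to 23.7 M after water and 12.2 to 14.4 M after ethanol, without overlap. In LbNOX livers it was 13.7 to 20.6 M after water and 10.6 to 15.7 M after ethanol. The part of depth in the receptor values was not tested. The 9 hepatocyte markers that were in the table, out of 10 listed, summed to normalized counts of 549720 to 1018550 per library, and none of them was called in any comparison. Libraries M3 (luciferase water) and M8 (LbNOX water) had the lowest median correlation with their own group in each water group, 0.928 and 0.938 across genes. They also had the highest summed Kupffer cell and macrophage markers of all libraries, 4489 and 3763, against 1595 to 3176 in the other 13.

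Per kilobase of merged exons, the order of receptor levels in luciferase livers after water was led by Hnf4a, the master regulator of hepatocyte identity. Its normalized count per kb was 2189 ± 474 (SD, n = 5), and its lowest library (1763) stood above the highest for Rxra (1670). Rxra, the main hepatic partner receptor, followed at 1290 ± 243, and Nr1h4 (FXR, the bile acid receptor) at 1043 ± 253. Ppara (562 ± 274), Nr1h3 (LXRα, 539 ± 50.2) and Nr1i2 (PXR, 523 ± 91.3) came next. After Hnf4a, every receptor shared part of its range with the next in the order. The last places were taken by Nr2f1 at 1.77 ± 0.675, Vdr (the vitamin D receptor) at 0.512 ± 0.571 and Hnf4g at 0.497 ± 0.152 per kb. Vdr read 0 to 15.4 normalized counts and Hnf4g 0 to 6.05 over all 15 libraries. When lengths were taken from the longest coding transcript instead, the first 3 places were unchanged and Ppara and Nr1h3 swapped.

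**Figure D1:**
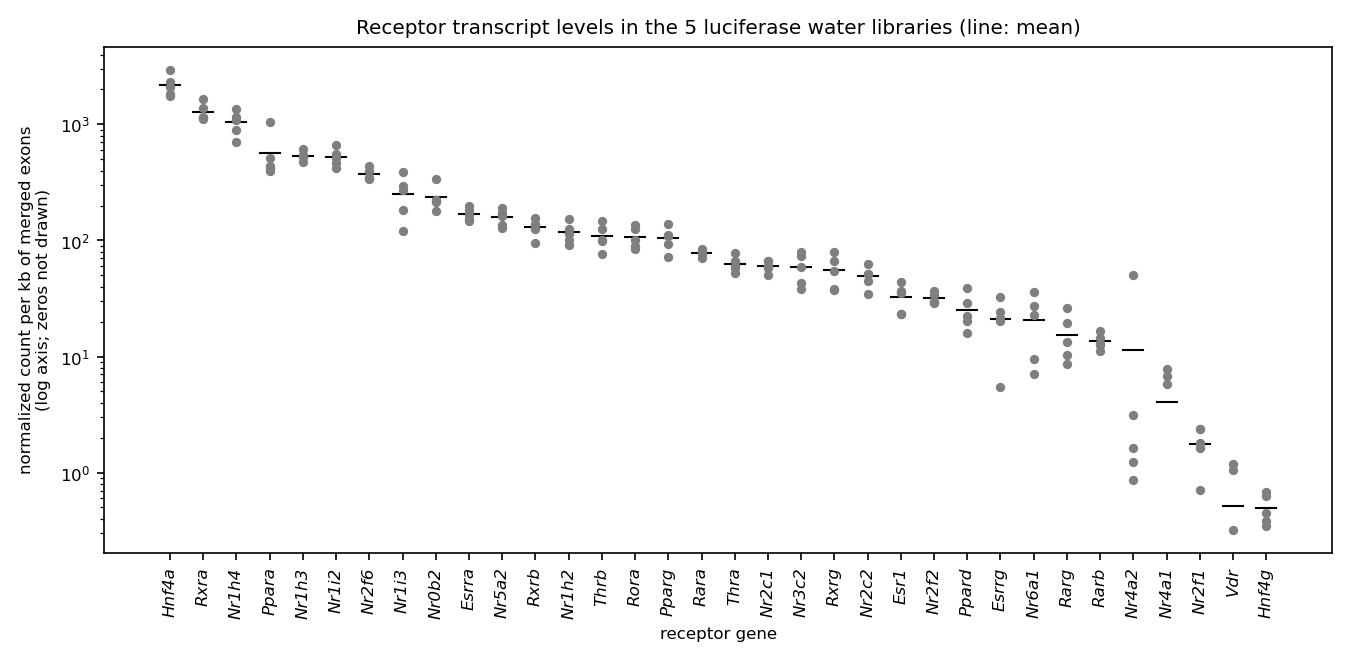
Levels of 34 receptor transcripts in the 5 luciferase water libraries, as normalized count per kb of merged exons on a log axis; points are libraries, lines are means, and zeros are not drawn. Hnf4a (mean 2189) is the only receptor whose libraries all lie above those of the next gene, and Vdr and Hnf4g lie near 0.5.

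After ethanol, 2 of the 32 receptors tested were called in luciferase livers, Pparg and Thra, and both rose. The call rule was a Benjamini-Hochberg adjusted p below 0.05 in limma across all 13570 genes, and 7.75% of those genes were called by it (4.62% higher, 3.13% lower), so the receptors' share of 6.25% was near the background. In LbNOX livers none of the 32 was called by limma, against 0.00737% of all genes. There, 3 receptors had an unadjusted p below 0.05 (11.6% of all genes), edgeR called 0, and DESeq2 called Nr1h3 and Rara (2.08% of all genes called). The other 30 receptors in luciferase livers had log2 fold changes from −0.71 (Nr2f1) to 2.34 (Nr4a1), with limma adjusted p from 0.0505 to 0.99. All fold changes are on the scale of log2 of the normalized count plus 1, which understates changes of weakly detected genes unless a library is listed at 0, where it can overstate them. The median over the 32 receptors was −0.03 in luciferase livers and −0.01 in LbNOX livers, beside 0.01 and −0.00 over all genes tested.

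**Figure D2:**
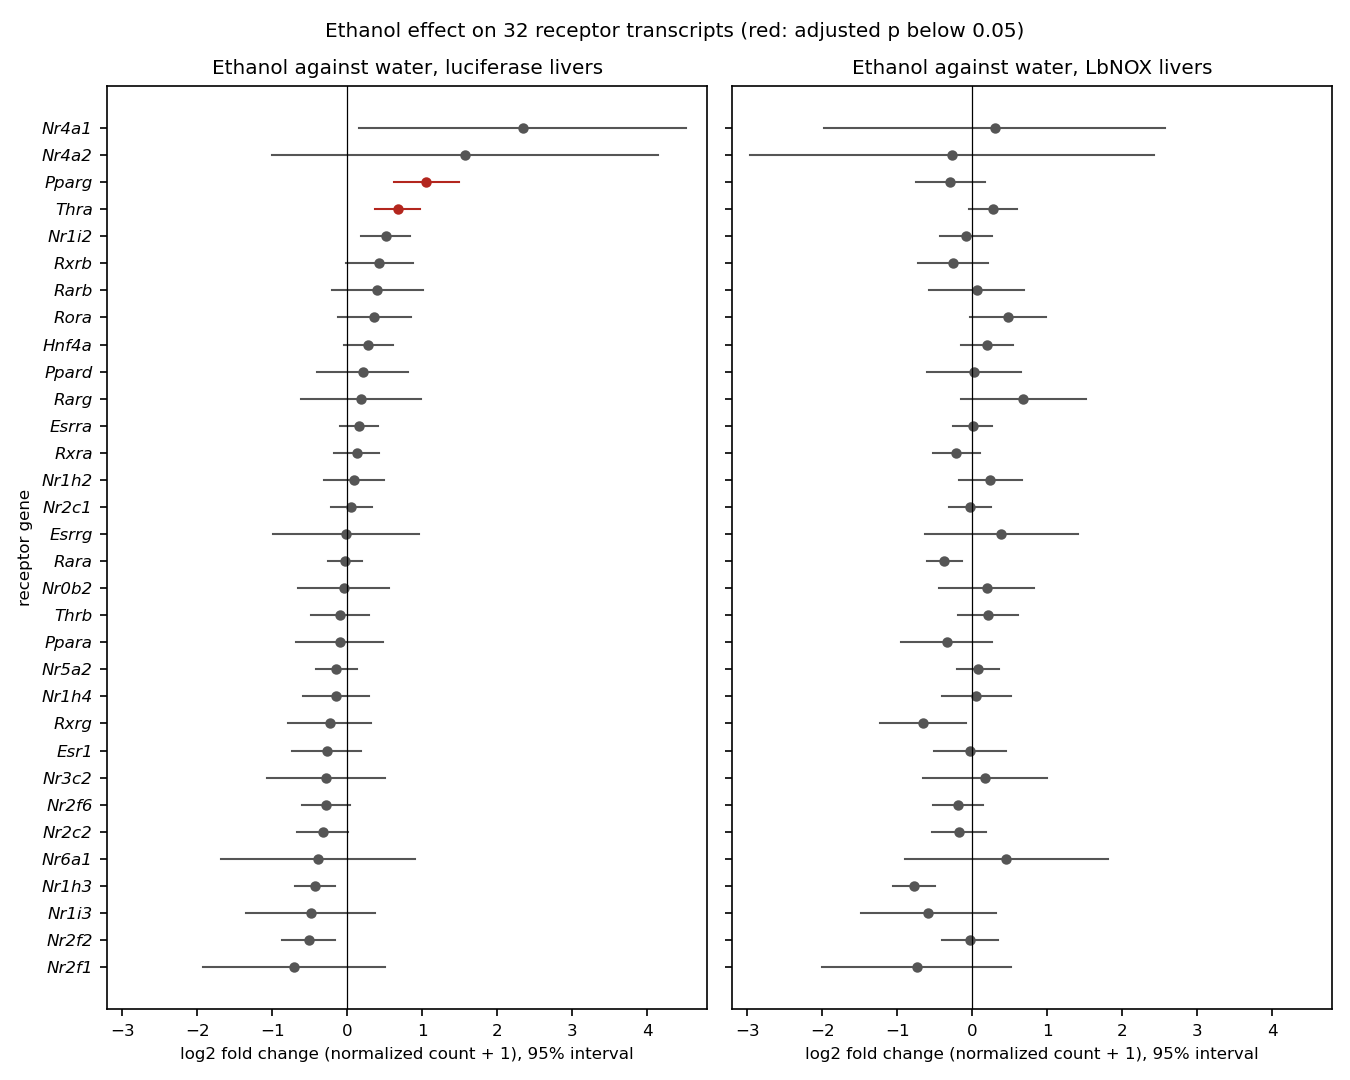
Log2 fold change of ethanol against water for 32 receptors (rows) in luciferase livers (left) and LbNOX livers (right); points are limma estimates, lines 95% intervals, and red marks an adjusted p below 0.05. Pparg (1.06) and Thra (0.67) are red on the left, and no receptor is red on the right.

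Pparg encodes the receptor best known for driving fat cell formation, and in liver it favours fat storage. The gene lies at chr6:115360951-115490399 on the plus strand (GRCm38, GENCODE vM21). Its normalized counts after water were 326, 325, 212, 406 and 274 in luciferase livers and 341, 297, 286 and 350 in LbNOX livers. After ethanol they were 729, 521 and 654 in luciferase livers and 306, 296 and 192 in LbNOX livers. All 3 luciferase ethanol libraries stood above the other 12, and the LbNOX ethanol libraries stayed within or below the range after water. The log2 fold change was 1.06 in luciferase livers (SE 0.20, 95% interval 0.62 to 1.49, limma adjusted p = 0.00526) and −0.29 in LbNOX livers (SE 0.21, interval −0.75 to 0.17, adjusted p = 0.618).

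Between the constructs after ethanol, Pparg was lower in LbNOX livers by a log2 fold change of −1.28 (SE 0.23, limma adjusted p = 0.00556), the only receptor called there, against 6.06% of all genes (3.82% lower). This comparison and the luciferase ethanol comparison share the 3 luciferase ethanol libraries. The difference of the ethanol effects, LbNOX minus luciferase, was −1.35 (SE 0.30, adjusted p = 0.0366), again the only receptor called, against 1.67% of all genes (1.25% lower). That call ended without a mean-variance trend and when any of M1, M2, M5, M6, M7, M9, M10, M12, M13 or M15 was left out, 10 of 15 libraries, with adjusted p up to 0.118; the estimate kept its sign and ran from −1.48 to −1.13. Both other Pparg calls held in each of the 15 omissions. Of 6 adipocyte genes chosen after the values were seen, Plin1 was not analysed here and the other 5 had a summed normalized count of 328 to 535 in luciferase livers after water and 264 to 497 after ethanol. In LbNOX livers the sums, made up mostly of Fabp4, were 232 to 1050 and 628 to 1517, and Adipoq, Cfd and Lep were at 0 in some libraries. Adipoq, a fat cell hormone, averaged 12.97 after ethanol in luciferase livers against 5.94 after water (limma adjusted p = 0.304), and 1.77 against 4.66 in LbNOX livers. Between the constructs after ethanol, the median of the 3 adipocyte genes tested was −2.54, the value of Adipoq, while the summed count was higher in LbNOX livers. Adipoq (−2.54) and Cfd (−3.48) lay lower in LbNOX livers and Fabp4 (1.41) higher, and none was called. The part of fat cells in the Pparg result was not tested. In bulk RNA, fewer cells of a type and less RNA per cell cannot be told apart. Cd36, Cidec and Mogat1, fat storage genes associated with Pparg in liver had log2 fold changes of −0.34, 0.33 and 0.22 in luciferase livers. Of the 6 such genes, likewise chosen late, 4 lay above 0 there (median 0.28), the median difference between constructs was −0.47, and none was called in either.

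The sequence before the starts of Pparg is shown because it was the only receptor called for the difference of the ethanol effects. That call held in 5 of the 15 omissions of a library. Windows of Rxra and Nr1h4, the abundant receptors that hold the hexamer, are also shown. The hexamer AGGTCA is the core that many nuclear receptors bind. In RefSeq (GRCm38.p6), 250 bases before each start site were searched on both strands for AGGTCA, for its direct repeats DR1 and DR4 (spaced by 1 and by 4 bases), and for the E-box CACGTG. The table held 51 promoters of 32 receptors. The hexamer was in 9 of those 51 promoters (17.6%), of 8 receptors, beside 14% of all 32851 promoters. The E-box was in 4 (7.84%, beside 6.02%), and neither direct repeat was in any receptor promoter (0.0335% and 0.0152% of all promoters; each repeat also contains the hexamer). Of the 3 Pparg starts, the hexamer begins 28 bases before the first and 9 bases before the second, shown as 30 bases each, and the third window has none. The 250 bases before the first and the second start overlap annotated exons of Pparg itself. Both hexamers lie downstream of its GENCODE gene start (115360951). Capitals mark the hexamer, as AGGTCA or, read from the other strand, TGACCT. The Rxra window shown holds 2, and the window of its other start (chr2:27676951-27677200) holds none. A match is a description of letters, and binding was not measured.
Pparg, chr6:115361104-115361133 (+): agccgccgcctcAGGTCAgagtcgccccgg
Pparg, chr6:115362319-115362348 (+): ttttatataagggacgcgaggAGGTCAaga
Pparg, chr6:115421816-115422065 (+): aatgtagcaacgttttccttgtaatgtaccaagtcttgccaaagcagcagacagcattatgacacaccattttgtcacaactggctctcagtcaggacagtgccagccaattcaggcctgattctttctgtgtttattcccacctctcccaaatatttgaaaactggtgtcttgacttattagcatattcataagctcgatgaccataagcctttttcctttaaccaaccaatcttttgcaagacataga
Rxra, chr2:27709042-27709291 (+): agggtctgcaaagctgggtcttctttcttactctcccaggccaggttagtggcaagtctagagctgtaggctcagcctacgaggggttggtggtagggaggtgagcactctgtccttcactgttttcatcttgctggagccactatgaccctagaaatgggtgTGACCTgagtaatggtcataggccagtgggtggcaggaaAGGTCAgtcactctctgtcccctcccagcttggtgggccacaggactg
Nr1h4, chr10:89506659-89506908 (−): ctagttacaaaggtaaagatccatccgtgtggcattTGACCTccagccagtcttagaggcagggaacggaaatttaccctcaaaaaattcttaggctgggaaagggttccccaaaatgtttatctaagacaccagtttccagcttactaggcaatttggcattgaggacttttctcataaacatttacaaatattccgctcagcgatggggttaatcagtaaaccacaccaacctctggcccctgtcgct

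Thra encodes thyroid hormone receptor α, while its paralogue Thrb is the main form of hepatocytes. Thra lies at chr11:98740638-98769006 on the plus strand. Its normalized counts after water were 281, 266, 242, 357 and 308 in luciferase livers, and 315, 355, 316 and 380 in LbNOX livers. After ethanol they were 496, 519 and 378 in luciferase livers and 417, 411 and 414 in LbNOX livers. In each construct every ethanol library stood above every water library, as for 1% of all genes in that direction. The log2 fold change was 0.67 in luciferase livers (SE 0.14, limma adjusted p = 0.00905) and 0.28 in LbNOX livers (SE 0.15, adjusted p = 0.491), and the difference between them did not pass (−0.39, interval −0.83 to 0.04, adjusted p = 0.391). The luciferase call ended without M10 or without M11 and in a fit of only the groups compared, with adjusted p up to 0.0613. Thra shares 263 exonic bases (5.70% of its exons) with Nr1d1 on the opposite strand, and whether counting used strand is not stated. Nr1d1, a clock repressor, had a log2 fold change of −0.56 in luciferase livers (adjusted p = 0.198) and 0.15 in LbNOX livers. Thrb averaged 816 ± 198 normalized counts after water and 758 ± 155 after ethanol in luciferase livers, a change of −0.09 with an interval from −0.48 to 0.30.

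Nr1h3 encodes LXRα, the oxysterol receptor that turns on cholesterol efflux and lipogenic genes, and lies at chr2:91184061-91202834 on the minus strand. Its normalized counts after water were 1376, 1357, 1183, 1330 and 1537 in luciferase livers and 1407, 1325, 1214 and 1648 in LbNOX livers. After ethanol they were 1029, 1005 and 973 in luciferase livers and 794, 964 and 694 in LbNOX livers. All 6 ethanol libraries lay below all 9 water libraries, and separation in that direction within both constructs was found for 0.789% of all genes. The log2 fold changes were −0.43 in luciferase livers (SE 0.13, limma adjusted p = 0.0505) and −0.78 in LbNOX livers (SE 0.13, adjusted p = 0.0716), neither of which passed. Under the alternatives the luciferase value had adjusted p from 0.0116 to 0.155, passing with edgeR, DESeq2, quantile normalization, a filter of 50, without M3 and M8 together, and without any 1 of M3, M8, M9, M14 or M15. The LbNOX value had adjusted p from 3.99e-05 to 0.255 and passed with DESeq2, without M3 and M8, and without M14. The difference between constructs was −0.35 (interval −0.74 to 0.04, adjusted p = 0.399). Macrophages also express this receptor, and 10 of 11 markers of Kupffer cells and macrophages, in the table, summed to 1793 to 4489 after water and 1595 to 2083 after ethanol in luciferase livers. In LbNOX livers the sums were 1947 to 3763 and 1856 to 3176. Of the 9 markers tested, 8 were lower after ethanol in luciferase livers (median −0.41), while in LbNOX livers 5 were higher and 4 lower (median 0.06). No marker of this list was called in any comparison, Timd4 was at 0 in some libraries, and their part in the Nr1h3 result was not tested. Nr1h2 (LXRβ), the widely expressed relative, averaged 393 ± 81.2 and 413 ± 44.0 in luciferase livers (log2 fold change 0.09, adjusted p = 0.857) and changed by 0.24 in LbNOX livers (adjusted p = 0.651).

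**Figure D3:**
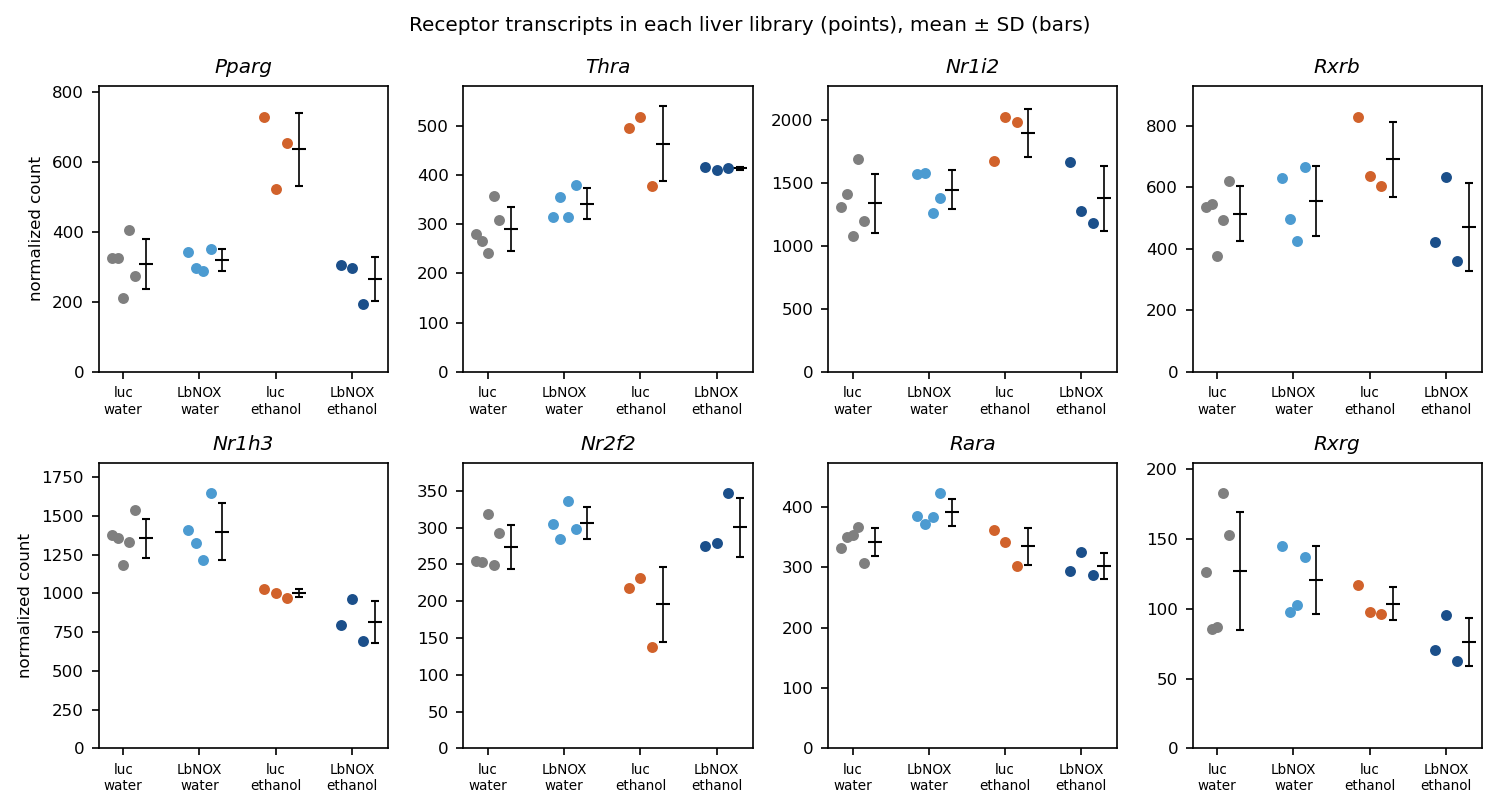
Normalized counts of 8 receptors in each library (points), with mean ± SD beside each group; luc stands for luciferase and all axes start at 0. Pparg is high in the 3 luciferase ethanol libraries (521 to 729), and Nr1h3 is lower after ethanol in both constructs (694 to 1029 against 1183 to 1648).

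Among the receptors of foreign compounds, Nr1i2 (PXR), which induces drug-clearing enzymes, read 1310, 1412, 1075, 1687 and 1196 after water and 1675, 2023 and 1979 after ethanol in luciferase livers. The groups overlapped only through M4 (1687) and M10 (1675). The log2 fold change was 0.51 (SE 0.15, limma adjusted p = 0.0549). It passed with quantile normalization, a filter of 50, DESeq2, and without M4 or M13, with adjusted p from 0.0185 to 0.174 over all alternatives. In LbNOX livers its counts were 1565, 1575, 1261 and 1376 after water and 1667, 1277 and 1178 after ethanol, a change of −0.08 (adjusted p = 0.872). The difference between constructs did not pass (−0.60, interval −1.07 to −0.12, adjusted p = 0.215). Nr1i3 (CAR), its close relative, varied more than 3-fold within each water group, from 533 to 1724 in luciferase and from 638 to 2002 in LbNOX livers, and the lowest of each were M3 and M8. Its change was −0.49 in luciferase livers (interval −1.35 to 0.37) and −0.58 in LbNOX livers (interval −1.48 to 0.32). Of its exons, 74.9% also lie under Tomm40l on the opposite strand, so its count may hold reads of that gene.

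Nr1h4 (FXR) and Nr0b2 (SHP, the partner without a DNA-binding domain that FXR induces to curb bile acid synthesis) did not pass in any comparison. Nr1h4 averaged 2401 ± 582 after water and 2127 ± 257 after ethanol in luciferase livers (log2 fold change −0.15, interval −0.58 to 0.29). Nr0b2 averaged 269 ± 68.8 and 267 ± 94.1, a change of −0.05 with an interval from −0.65 to 0.56. Of the fatty acid receptors, Ppara, which turns on fatty acid oxidation, changed by −0.10 in luciferase livers (adjusted p = 0.895) and −0.34 in LbNOX livers (adjusted p = 0.665). Its luciferase water libraries read 1528, 1958, 1602, 4011 and 1686, so that M4 alone lifted the group's SD to 1049 around a mean of 2157. Ppard, the widely expressed family member, averaged 190 ± 66.3 and 214 ± 56.3 (change 0.21, adjusted p = 0.752).

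The retinoid X receptors, obligate partners of the lipid sensors, held no called member in any comparison. Rxra averaged 7046 ± 1326 normalized counts after water and 7592 ± 413 after ethanol in luciferase livers, and 7210 ± 518 and 6228 ± 484 in LbNOX livers, where the groups did not overlap. Rxrb read 536, 545, 376, 494 and 621 after water and 830, 637 and 606 after ethanol in luciferase livers (log2 fold change 0.43, adjusted p = 0.26). In LbNOX livers it read 631, 496, 427 and 668 after water and 422, 633 and 360 after ethanol (−0.25, adjusted p = 0.679). Rxrg, the least abundant of them, read 145, 97.7, 102 and 137 after water and 70.6, 95.4 and 62.9 after ethanol in LbNOX livers, without overlap. Its change there was −0.66 (SE 0.27, adjusted p = 0.377). In luciferase livers Rxrg read 126, 85.4, 87.3, 183 and 153 after water and 117, 98.0 and 96.0 after ethanol, inside the water range (−0.23, adjusted p = 0.684). For all 3 genes the estimated ethanol effect was lower in LbNOX than in luciferase livers, by −0.34 for Rxra, −0.68 for Rxrb and −0.42 for Rxrg, with adjusted p of 0.463, 0.311 and 0.625.

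In LbNOX livers 5 receptors had ethanol and water libraries that did not overlap, Thra upward and Nr1h3, Rara, Rxra and Rxrg downward, or 15.6% of the 32 beside 10.9% of all genes (5.42% upward, 5.49% downward). In luciferase livers there were also 5, Pparg, Thra and Nr4a1 upward and Nr1h3 and Nr2f2 downward, or 15.6% beside 14.7% of all genes (8.32% upward, 6.39% downward). Most markers of some cell types had estimates of the same sign after ethanol. In LbNOX livers all 7 neutrophil markers tested lay above 0 (median 1.96), 4 with an unadjusted p below 0.05, as for 11.6% of all genes. There 8 of 9 hepatocyte markers lay below 0 (median −0.23) and all 6 cholangiocyte markers tested above 0 (median 0.44). None of these markers was called there. In luciferase livers 6 of 7 neutrophil and 7 of 9 hepatocyte markers lay above 0 (medians 0.29 and 0.10). Cholangiocyte markers were split there, 3 above and 3 below 0, and again none was called. The neutrophil markers summed to 984 to 2393 after water and 1883 to 5118 after ethanol in LbNOX livers, and to 1047 to 3825 and 694 to 7525 in luciferase livers, with S100a8, Retnlg, Mmp8 and Ngp at 0 in some libraries. In luciferase livers all 8 markers of T, NK and B cells that were tested lay below 0 after ethanol (median −0.92), and Nkg7, of cytotoxic cells, was called (−2.36, limma adjusted p = 0.0486). In LbNOX livers 3 of these 8 lay above 0 and 5 below (median −0.32), and none was called. The part of these cell types in the receptor values was not tested.

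Rara encodes retinoic acid receptor α, the most abundant of its 3 forms here per kb. After water it read 333, 350, 354, 367 and 307 in luciferase livers and 386, 373, 383 and 423 in LbNOX livers. These groups did not overlap, as for 0.936% of all genes in that comparison (0.317% in that direction), yet the change of 0.19 did not pass (SE 0.10, limma adjusted p = 1). After ethanol it read 362, 342 and 302 in luciferase livers and 293, 326 and 288 in LbNOX livers, a change from water of −0.03 in the former (adjusted p = 0.917) and −0.37 in the latter (SE 0.11, adjusted p = 0.197). Rarb, induced by retinoic acid in many cells, averaged 71.1 ± 10.6 after water and 94.8 ± 20.0 after ethanol in luciferase livers, and Rarg averaged 65.9 ± 30.3 and 72.5 ± 27.4. Neither was called. Of the remaining hormone receptors, Esr1 (oestrogen receptor α) changed by −0.27 and Nr3c2 (mineralocorticoid receptor) by −0.28 in luciferase livers, and by −0.02 and 0.17 in LbNOX livers, with adjusted p from 0.522 to 0.975.

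Receptors of hepatocyte identity did not pass in any comparison. Hnf4a averaged 10568 ± 2289 and 12642 ± 750.5 normalized counts in luciferase livers after water and ethanol (log2 fold change 0.28, interval −0.05 to 0.61, limma adjusted p = 0.321), and 10621 ± 389 and 12218 ± 1420 in LbNOX livers (0.20, adjusted p = 0.659). Nr5a2 (LRH-1), which supports bile acid synthesis, changed by −0.14 (interval −0.41 to 0.13) and 0.07 (interval −0.21 to 0.36).

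Among the 11 orphan receptors, so named because they were found before any ligand, none was called. Nr2f2 (COUP-TFII), known for its role in venous endothelium and mesenchyme, came nearest. After water it read 255, 254, 318, 250 and 293 in luciferase livers and 306, 284, 336 and 299 in LbNOX livers. After ethanol it read 218, 232 and 137 in luciferase livers, all below the water range, and 275, 279 and 347 in LbNOX livers. The luciferase change was −0.51 (SE 0.17, limma adjusted p = 0.0767; DESeq2 called it, adjusted p = 0.0471), the LbNOX change −0.03 (adjusted p = 0.957), and the contrast between constructs after ethanol 0.65 (SE 0.19, adjusted p = 0.0549). The latter passed without M11 (adjusted p = 0.0384), with DESeq2, with a higher filter, and without M3 and M8. Over all alternatives the luciferase change ran from −0.65 to −0.28 (adjusted p up to 0.354). The contrast between constructs after ethanol ran from 0.41 to 0.79 (adjusted p up to 0.21), and both were smallest in size without M12. The difference of ethanol effects was 0.48 (interval −0.03 to 1.00, adjusted p = 0.37). The 11 endothelial markers summed to 3596 to 6057 after water and 2881 to 4233 after ethanol in luciferase livers, and to 3749 to 6385 and 3466 to 5392 in LbNOX livers. None of them was called in any comparison or at 0 in any library, 10 of 11 were lower after ethanol in luciferase livers (median −0.39), and their part in the Nr2f2 result was not tested. The 12 stellate cell markers, of mesenchymal cells, summed to 3113 to 5485 after water and 3982 to 4458 after ethanol in luciferase livers and to 3672 to 4616 and 3549 to 4660 in LbNOX livers; none was called, and Hgf was at 0 in some libraries.

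Nr4a1 (NUR77) and Nr4a2 (NURR1) are rapidly induced by stress, feeding and hormone signals. Nr4a1 read 20.4, 27.3, 0, 0 and 24.0 after water and 30.3, 36.2 and 34.9 after ethanol in luciferase livers. The groups did not overlap, with means of 14.3 and 33.8, but the log2 fold change of 2.34, raised by the zeros in M3 and M4, did not pass (SE 1.02, limma adjusted p = 0.202). In LbNOX livers Nr4a1 read 20.5, 19.5, 29.3 and 21.4 after water and 41.5, 17.7 and 29.0 after ethanol. Nr4a2 stood at 205 in M1 and 407 in M11 and at 3.52 to 20.2 in the other 13 libraries.

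Esrra, a regulator of mitochondrial genes, had among the smallest p in the water comparison of the constructs, 876, 809, 666, 639 and 723 in luciferase against 779, 795, 866 and 987 in LbNOX livers (0.21, SE 0.11, limma adjusted p = 1). Its change after ethanol was 0.16 in luciferase livers, at 783, 854 and 838, and 0.01 in LbNOX livers, at 854, 887 and 829. Rora, a clock and lipid regulator, had estimates of 0.36 and 0.47 after ethanol in the 2 constructs (adjusted p = 0.399 and 0.467). Nr2c1 and Nr2c2, close relatives that act mainly as repressors, had 0.06 and −0.33 in luciferase livers, Nr2f6 −0.29 and Esrrg −0.02. Exons of Ocel1 cover 54.4% of those of Nr2f6 on the other strand, exons of Mrps25 30.7% of those of Nr2c2, and exons of Top2b 34.1% of those of Rarb. Nr6a1 varied from 76.3 to 391 within the luciferase water group and Nr2f1 lay between 2.33 and 28.1 in all libraries, and neither was called in any comparison.

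**Figure D4:**
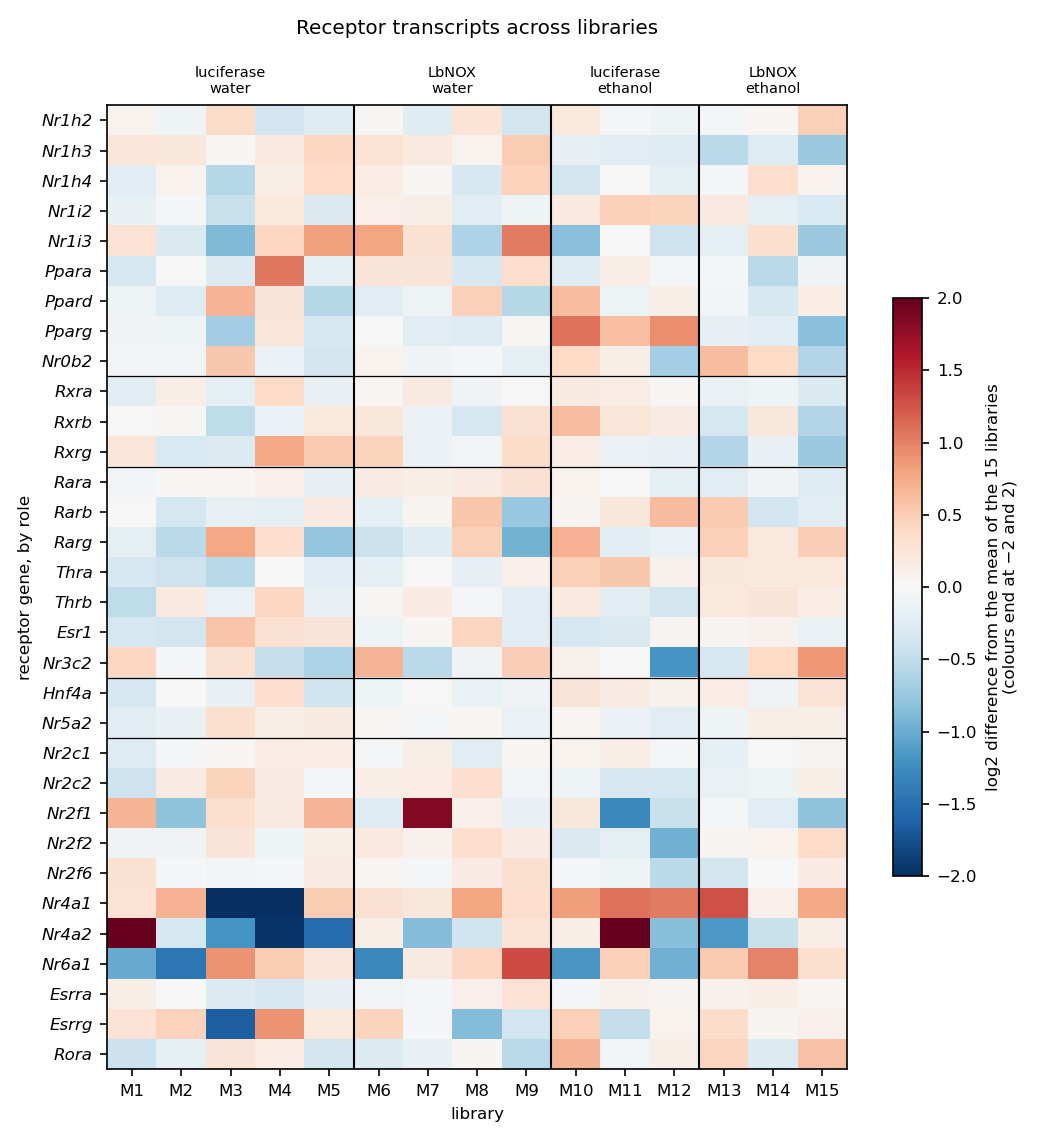
Heat map of 32 receptors (rows, ordered by role) in 15 libraries (columns, by group), as log2 of the normalized count plus 1 minus the mean over the 15 libraries; red is above and blue below that mean, and colours end at −2 and 2. Pparg is deepest red in M10 to M12, Nr1h3 is blue in M10 to M15, and Nr4a1 and Nr4a2 have the widest spread.

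LbNOX itself, compared with luciferase after water, moved no receptor past the test. None of the 32 was called by limma, edgeR or DESeq2, and none had an unadjusted p below 0.05, beside 3.24% of all genes; over all genes limma and edgeR called 0% and DESeq2 0.133%. Estimates ran from −0.25 for Esrrg to 1.77 for Nr4a1, a value that rests on the zeros in M3 and M4 and ran from 0.64 to 2.28 under the alternatives. After ethanol, 6 receptors did not overlap between the constructs (18.8%, beside 29.6% of all genes). Nr2f2 lay higher in LbNOX livers (14.1% of all genes in that direction), and Nr1h3, Nr1i2, Pparg, Rxra and Rxrg lay lower (15.4%). In this comparison all 9 Kupffer cell and macrophage markers tested (median 0.49) and all 7 neutrophil markers (0.78) lay above 0. Of 9 hepatocyte markers, 7 lay below 0 (median −0.31). Cholangiocyte markers were split, 3 above and 3 below 0, and Sox4 of that list was called (1.85, limma adjusted p = 0.0344). Endothelial markers lay 8 above and 3 below 0, T, NK and B cell markers 5 and 3, and stellate cell markers 4 and 8. Their part in the receptor values was not tested.

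The coregulators were described next, since receptors act through them. Of 24 coregulators tested, 2 rose and none fell in luciferase livers after ethanol (4.62% and 3.13% of all genes did), with a median of 0.06, and none passed in LbNOX livers (median 0.12). Ncoa1 (SRC-1), the coactivator first found for steroid receptors, read 540, 743, 469, 493 and 485 after water and 2653, 1614 and 2494 after ethanol in luciferase livers. In LbNOX livers it read 670, 639, 749 and 573 after water and 652, 674 and 605 after ethanol, so that the luciferase ethanol libraries stood apart from the other 12. The log2 fold change was 2.03 in luciferase livers (limma adjusted p = 2.28e-05) and −0.03 in LbNOX livers (adjusted p = 0.966). The difference of −2.06 passed (SE 0.25, adjusted p = 0.002), and it passed in each of the 15 omissions of a library. Between the constructs after ethanol, Ncoa1 and Ppargc1b, a coactivator of lipogenic and mitochondrial programs, were lower in LbNOX livers (−1.78 and −0.94).

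Of 17 genes that make, carry or break down receptor ligands, 1 rose and 1 fell in luciferase livers after ethanol (7.75% of all genes were called in either direction; median 0.15), and none passed in LbNOX livers (median −0.18). Cyp26a1, which breaks down retinoic acid and is itself a retinoic acid target, rose from 129 ± 59.4 to 728 ± 353 normalized counts (log2 fold change 2.44, limma adjusted p = 0.0143). In LbNOX livers it averaged 115 ± 22.1 and 177 ± 197 (0.05, adjusted p = 0.979), with M13 at 404 and M14 and M15 at 57.0 and 70.1. The difference did not pass (−2.39, adjusted p = 0.164) but did without M13 (−3.28, adjusted p = 0.0238), and the luciferase call ended without M10 or without M12. Cyp7a1, which starts bile acid synthesis and is repressed through FXR and SHP, fell by 2.32 on the log2 scale in luciferase livers and was the only one of 13 FXR targets called there (median 0.03). Its difference between constructs passed (2.49, adjusted p = 0.0159), and not without M15 (adjusted p = 0.0519).

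Lists of genes known as receptor targets were read by their counts, beside 4.62% of all genes that rose and 3.13% that fell in luciferase livers, and they overlap each other. Like the receptors, they were chosen with earlier results of these data known. Of 12 LXR targets, 2 rose in luciferase livers after ethanol, the cholesterol exporter Abca1 (1.03, limma adjusted p = 0.00326) and the lipogenic factor Srebf1 (0.89, adjusted p = 0.011), with a median of 0.20. Of 20 PPARA targets, 1 rose and 3 fell (median −0.20): the hormone gene Fgf21 rose (1.81), and the lipid droplet gene Plin2 (−0.78), the carnitine transferase gene Cpt1a (−0.84) and the thioesterase gene Acot1 (−1.02) fell. The Acot1 call held only in the omissions of M2, M9 or M10 (3 of 15) and ended without a trend, with no filter, with only the groups compared, with edgeR and without M3 and M8 (adjusted p up to 0.225). The Cpt1a call ended without M2, M4, M5, M10 or M12 and with only the groups compared (adjusted p up to 0.194). Of 18 CAR and PXR targets, 2 rose, the stress gene Gadd45b (1.20) and the P450 gene Cyp2c29 (0.98), with a median of 0.09, and the Cyp2c29 call ended without M1, M2, M10, M11 or M12.

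Of 11 thyroid hormone receptor targets, 4 rose and 1 fell, with a median of 0.42. Those that rose were G6pc, of glucose release (3.57), Gpd2, of the glycerol phosphate shuttle (0.98), Thrsp, a lipogenic gene (3.03), and the malic enzyme Me1 (1.00), and Cpt1a fell; several of these genes also answer to other lipogenic or glucose-sensing factors. Of 16 HNF4A targets, 3 rose, Mttp, which loads lipoproteins (0.60), the aminotransferase Tat (1.10) and Cyp2c29, with a median of 0.23. Of 7 retinoic acid receptor targets, Cyp26a1 alone passed (median 0.28), and of 12 targets of oestrogen-related and NR4A receptors G6pc rose and Fbp2, a bisphosphatase of gluconeogenesis, fell (−2.02; median 0.10). Further luciferase calls ended when 1 library was left out, for Me1 and Mttp M10 (for Me1 also M12), for Tat M10 or M11 and for Fbp2 M1, M10 or M11. With only the groups compared, the calls of Me1, Mttp, Tat, Cyp2c29 and Srebf1 ended.

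In LbNOX livers no gene of any of these 8 target lists was called after ethanol, against 0.00737% of all genes. The list medians ran from −0.32 (PPARA) to 0.05 (CAR and PXR, and retinoic acid, the latter −0.19 without M13). There 15 HNF4A targets lay below 0 and 1 above (median −0.24), and 17 PPARA targets below and 3 above. Between the constructs after ethanol, all 16 HNF4A targets lay lower in LbNOX livers (median −0.52). Of these, Mttp and F7 were called, against 3.82% of all genes called lower. Hnf4a itself differed by −0.05 (limma adjusted p = 0.891). The difference of the ethanol effects passed for Cyp7a1, Srebf1 (−1.18), Fgf21 (−2.23), G6pc (−3.74) and Thrsp (−3.24), and not for the others named; for Abca1 it was −0.97 (limma adjusted p = 0.0862). The G6pc call ended without M10 or without M15. Of the 15 omissions, the Fgf21 call held in 5 (M4, M8, M9, M11, M14), that of Thrsp in 4 (M3, M4, M5, M8) and that of Srebf1 in 2 (M4, M11), with adjusted p up to 0.111, 0.132 and 0.133. These 3 calls also ended without a trend, those of Thrsp and Srebf1 with no filter, and those of Fgf21 and Srebf1 without M3 and M8. Slc10a1, a bile acid importer in 2 of the lists, was listed at 0 in M13 and had the lowest estimate of these lists in LbNOX livers (−3.97, adjusted p = 0.406).

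**Figure D5:**
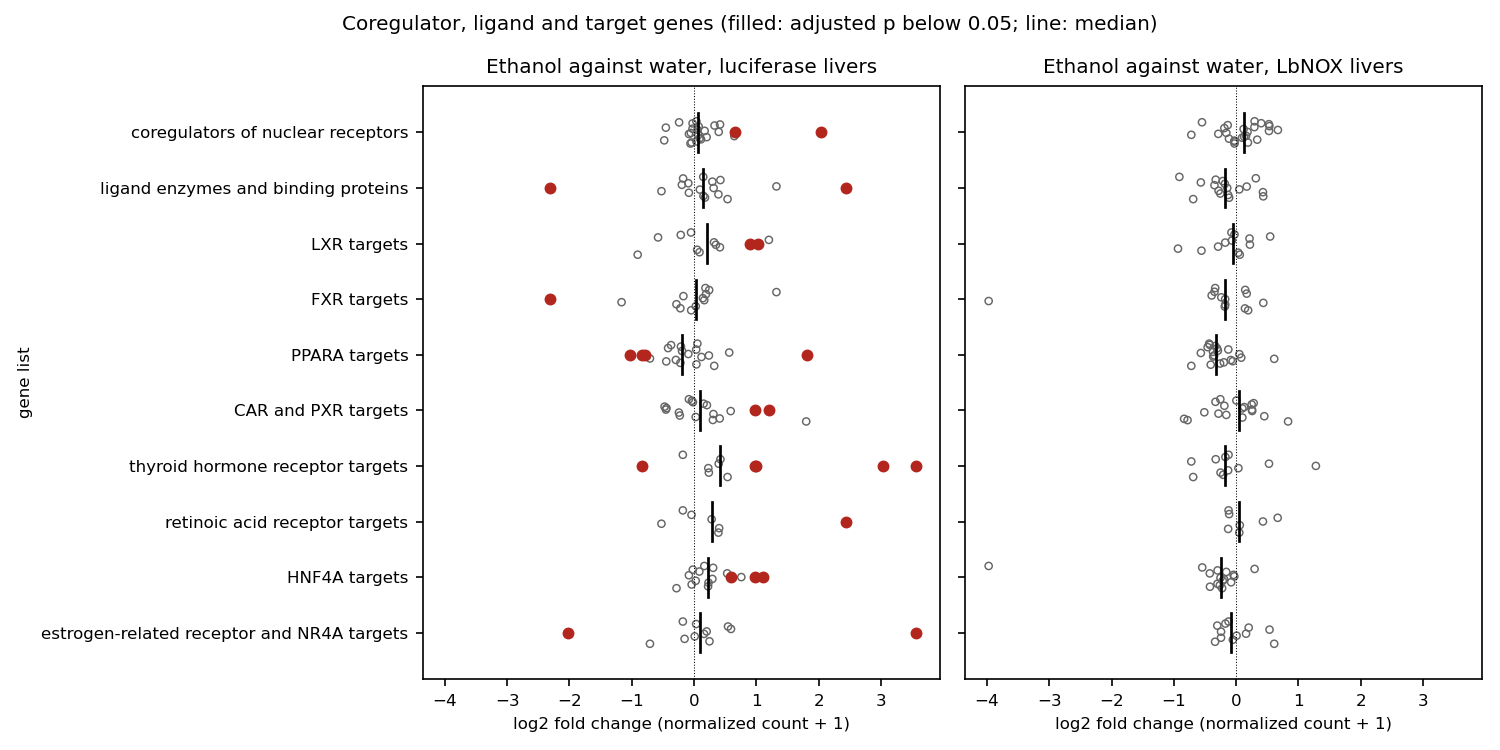
Log2 fold changes of ethanol against water for the genes of 10 lists (rows) in luciferase livers (left) and LbNOX livers (right); each point is a gene, filled red where the adjusted p was below 0.05, and vertical lines are list medians. Filled points lie only in the luciferase panel, with Ncoa1 at 2.03 among the coregulators; the lowest open point on the right is Slc10a1.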

How the data were processed

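Per the labels' protocols, liver RNA was extracted with an RNeasy kit and libraries were made with the KAPA mRNA HyperPrep kit. Salmon 1.5.1, DESeq2 1.30.1 and mm10 are named in the submitters' processing notes, with no role given for any of them. The authors deposited a normalized count (a signal per gene and library); every value lay within 0.001 of a whole read after division by the library's smallest step (100% of values), which gave the reads. No pair of replicates agreed within sampling noise. Groups came from the table header. Testing used limma 3.58.1 (R 4.3.3, with a variance trend, robust) on the deposited value plus 1 in log2, with 4 groups in 1 fit, 5 contrasts and Benjamini-Hochberg adjustment over 13570 genes; called means below 0.05. It was tested on simulated data. Alternatives were edgeR 4.0.16 and DESeq2 1.42.0 on recovered reads, quantile normalization, no trend, no filter, a filter of 50, a pseudocount of 5, only the groups compared, omission of M3 and M8, and omission of each library. Intervals are 95%. Values in every library are given for receptors called in any comparison and the 3 smallest p in each; list genes are named by smallest p among those called in luciferase livers. The members and lists were chosen with earlier results of these data known. Date-like symbols (23) are not named. 1 gene that this rule chose is not reported here.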

Additional observations from a re-analysis of the deposited data

Results flagged for a closer look

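In groups of 4 or 5 libraries, 5 of 64 receptor groups held a library whose gap to the nearest other exceeded Dixon's critical value, where chance alone flags about 1 in 20. Ppara read 4011 in M4, against 1528 to 1958 in the other luciferase water libraries, and 1545 in M8, against 2308 to 2462 in the other LbNOX water libraries. Nr0b2 read 386 in M3, against 205 to 254. Nr2f1 read 28.1 in M7, against 5.75 to 7.70. Nr4a2 read 205 in M1, against 3.52 to 12.7.

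The ethanol effect differed between constructs, LbNOX minus luciferase, by the limma contrast of the effects for 1 receptor, Pparg (−1.35 on the log2 scale). The same contrast passed for Ncoa1 (−2.06), Cyp7a1 (2.49), Srebf1 (−1.18), Fgf21 (−2.23), G6pc (−3.74) and Thrsp (−3.24). Of these calls, that of Ncoa1 held in all 15 omissions of a library, that of Cyp7a1 in 14, G6pc in 13, Pparg and Fgf21 in 5 each, Thrsp in 4 and Srebf1 in 2.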

How the results depend on the processing

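No paired analysis was possible because the table's columns carry library names and no replicate numbers. Where a count of calls moved by over 1.5 times, the cause was not tested. M3 and M8 had the lowest correlation within their water groups in these same data, so calls gained without them are no independent check. Receptors called in luciferase livers after ethanol (2) became 4 with quantile normalization, 4 with a filter of 50, 5 with DESeq2 and 1 with only the groups compared; in LbNOX livers (0) they became 2 with DESeq2 and 1 without M3 and M8. Between the constructs after ethanol (1) they became 2 with a filter of 50, with DESeq2 and without M3 and M8, and for the difference of effects (1) they became 0 without a trend. Over all genes, luciferase ethanol calls (1052) became 614 with only the groups compared and 1621 with DESeq2. They were 1124 with quantile normalization and 1044 with a filter of 50. LbNOX ethanol calls (1) became 0 without a trend, 3 with only the groups compared, 282 with DESeq2 and 142 without M3 and M8. Calls between constructs after ethanol (822) became 1349 with DESeq2, and were 810 with a filter of 50 and 1180 without M3 and M8. After water (0) they became 18 with DESeq2 and 2 without M3 and M8. Differences (227) became 151 without a trend, 633 with DESeq2 and 395 without M3 and M8. Leaving out each library in turn gave 446 (without M10) to 1217 luciferase ethanol calls, 0 to 28 LbNOX ethanol calls (28 without M14), 299 (without M10) to 944 calls between constructs after ethanol, 0 to 1 after water, and 64 (without M10) to 403 (without M8) differences. For the receptors these ranges were 1 (without M10 or M11) to 3, 0 to 1 (Nr1h3, without M14), 1 to 2 (Nr2f2, without M11), 0 to 0 and 0 to 1. Some list medians turned sign, from as far as 0.25 (hormone and vitamin receptors, difference), which was −0.044 with no filter. Vdr joins that list when no filter is used, so its membership changed. In luciferase livers the median of CAR and PXR targets (0.09) was −0.19 without M11. Among the genes named by rule, signs turned for values near 0: the difference for Cpt1a (0.12) was −0.053 without M8 and −0.12 without M10, with omissions from −0.12 to 0.35; the LbNOX ethanol effect on Nr1i2 (−0.08) was 0.021 without M15 (omissions from −0.23); and that on Nr2f2 (−0.03) was 0.013 without M8 or without M3 and M8, 0.027 without M13 and 0.017 without M14 (omissions from −0.14). Precision is limited by 3 to 5 libraries a group, and by depth for Vdr, Hnf4g, Nr2f1 and Nr4a1, near the lowest counts.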

Other observations

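The receptors spread unequally within groups. Rara, the retinoic acid receptor, had a pooled SD of 0.10 on the log2 scale, at percentile 1.67 of all genes tested, followed by Nr2c1 (0.14) and Esrra (0.14). Nr4a2 (1.86), Nr4a1 (1.56), Nr6a1 (0.92), Nr2f1 (0.73), Esrrg (0.69) and Nr1i3 (0.62) spread most. The median was 0.30 over the 32 receptors and 0.32 over all genes tested, with 14 receptors above the latter.

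Libraries M3 and M8 shared high summed markers of other cell types among water libraries: 6057 and 6385 for endothelial cells, against 3596 to 4995 in the other 7, and 1871 and 1801 for cholangiocytes, against 804 to 1099. Nr1i3 had its lowest value of the water libraries in M3 and M8 (533 and 638), and Ppard was at 291 and 253 there.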
